A study of Mus musculus with 12 samples.

Results

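The 9 genes described here are the astrocyte endfoot and reactivity genes Gfap, Vim, Aqp4, Gja1, Gjb6, Aldh1l1, Aldoc, S100b and Dag1, chosen by name and read out of 54331 genes measured in mouse cerebral vessels, blood vessels purified from forebrain tissue. The vessels came from wild type C57BL6 mice, 2 to 3 months old, that received 1 intraperitoneal injection of PBS or of LPS, a bacterial cell wall component that sets off systemic inflammation, at 10 mg/kg. The 4 groups, of 3 RNA-seq libraries each, were PBS and, by the time from injection to killing, LPS 15 min, LPS 30 min or LPS 4 h. Every library pooled 1 male and 1 female mouse, so a value is an average over a pair of animals, and how long after PBS the control mice were killed was not given in the sources used here. The isolation kept what a mesh retained after density centrifugation, so the libraries hold astrocyte RNA only as far as endfeet and other fragments stayed on the vessels.

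Astrocytes are glial cells whose endfeet wrap nearly the whole surface of brain vessels. The endfoot membrane holds the water channel Aqp4, anchored through the dystrophin complex to dystroglycan, the product of Dag1, which binds laminin and agrin of the vascular basement membrane. The gap junction proteins connexin 43 (Gja1) and connexin 30 (Gjb6) couple neighbouring endfeet. Gfap and Vim encode intermediate filament proteins that rise in reactive astrocytes after injury or inflammation. Aldh1l1, an enzyme of folate metabolism, Aldoc, a glycolytic aldolase, and S100b, a calcium-binding protein, are used as markers of astrocytes. Vim, Gja1 and Dag1 are also made by cells of the vessel wall, Vim most plainly by endothelial cells.

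RefSeq promoter windows of GRCm38.p6, from 250 bases before to 50 after an annotated transcript start, were read for 8 of the 9 genes, 10 windows in all. They were searched on both strands for the STAT motif TTCNNNGAA, the AP-1 motif TGANTCA, the NF-kB motif (GGG, any 3 bases, TTCC) and the NFI motif (TTGGC, any 5 bases, GCCAA). These are motifs of factors that act in inflammatory signalling or, for NFI, in astrocyte development. The windows of Gfap, Gja1 and Gjb6 are shown because the levels of these genes went furthest apart after LPS. Each is printed in the direction of transcription up to base 20 after the start, with matches in capitals: Gfap at chr11:102897181-102897450 on the minus strand, Gja1 at chr10:56377050-56377319 on the plus strand, and Gjb6 at chr14:57133592-57133861 on the minus strand.
Gfap: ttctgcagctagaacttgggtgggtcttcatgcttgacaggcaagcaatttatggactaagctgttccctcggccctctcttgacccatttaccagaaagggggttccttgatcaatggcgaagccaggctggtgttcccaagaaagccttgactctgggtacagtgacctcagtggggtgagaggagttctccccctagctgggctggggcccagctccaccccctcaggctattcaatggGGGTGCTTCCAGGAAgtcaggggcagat
Gja1: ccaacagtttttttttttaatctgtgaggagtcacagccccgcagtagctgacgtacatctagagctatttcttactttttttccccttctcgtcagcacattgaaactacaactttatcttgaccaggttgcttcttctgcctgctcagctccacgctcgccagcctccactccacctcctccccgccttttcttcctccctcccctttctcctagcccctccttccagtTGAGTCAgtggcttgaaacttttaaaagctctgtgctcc
Gjb6: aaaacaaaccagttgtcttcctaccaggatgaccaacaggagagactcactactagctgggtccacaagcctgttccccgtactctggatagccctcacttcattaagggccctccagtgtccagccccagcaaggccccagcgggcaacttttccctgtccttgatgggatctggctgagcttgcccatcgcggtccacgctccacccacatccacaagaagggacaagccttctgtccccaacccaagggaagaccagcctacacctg
The Gfap window held an NF-kB match, GGGTGCTTCC, that overlapped a STAT match, TTCCAGGAA. The Gja1 window held the AP-1 match TGAGTCA, which began 19 bases before the start. The Gjb6 window had no match to any of the 4 motifs. Among the other windows, that of Vim held the NF-kB match GGAAAGCCCC, and 1 of the Aldoc windows held the STAT matches TTCAGTGAA and TTCCAGGAA. Of 32851 RefSeq windows of this length, 8.3% held the STAT motif, 7.81% AP-1, 5.56% NF-kB and 0.0365% NFI. A match is a run of letters and was not tested for binding.

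Levels are given as CPM, fragment counts estimated by the authors with Salmon, added up over the transcripts of each GENCODE M21 gene and scaled by library total and TMM factor, as mean ± SD over the 3 libraries of a group. A gene was called past the threshold where edgeR's quasi-likelihood test against a fold limit of 1.5 (a log2 fold change of 0.58) left an adjusted p below 0.05 over all 19150 genes tested. Log2 fold changes carry the standard error (SE) of the fit. Aqp4 was measured on the gene table deposited by the authors, as normalized counts with 1 added before taking logs, and tested with limma against the same fold. All 9 genes passed the filters on low values, and apart from Aqp4 each was measured from 255 to 28278 fragments per library. A table of counts from bulk RNA cannot tell fewer astrocyte endfeet on the vessels from less RNA per endfoot.

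Libraries held 18.3 to 25.9 M fragments, and their TMM factors lay between 1.04 and 1.17 except at LPS 4 h, where they lay between 0.715 and 0.718. Scaling by library size alone instead moved the median log2 fold change of all genes at LPS 4 h from -0.01 to -0.71, so changes at that time are relative to the middle of all genes. Among 12 marker lists, 8 endothelial markers summed to 7520 to 12600 CPM and 7 pericyte markers to 3310 to 3820, the cell types of vessels. The 5 ependymal and choroid plexus markers (Ttr, Foxj1, Folr1, Kl and Ccdc153) summed to 9220 to 18200 CPM, nearly all of it Ttr, a secreted protein of the choroid plexus. Of all marker genes only Ly6g of neutrophils was at 0 in a whole group, in PBS and LPS 15 min. The labels give each library as 1 male and 1 female, yet Xist, expressed from the inactive X of females, lay between 254 and 371 CPM in PBS, 31.5 and 108 with LPS 15 min, 11.6 and 20.9 with LPS 30 min, and 125 and 184 with LPS 4 h. The Y-linked gene Ddx3y lay between 40.2 and 54.4 CPM in PBS, 60.5 and 79.2 with LPS 15 min, 103 and 106 with LPS 30 min, and 141 and 151 with LPS 4 h. Xist lay below the PBS range in every LPS library, and lowest with LPS 30 min. No result could therefore be given without such libraries, and the difference cannot be told apart from the time after LPS. The 4 skeletal muscle markers summed to 110 to 118 CPM in the 3 LPS 30 min libraries and to 8.13 to 12.5 in PBS.

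**Figure D1:**
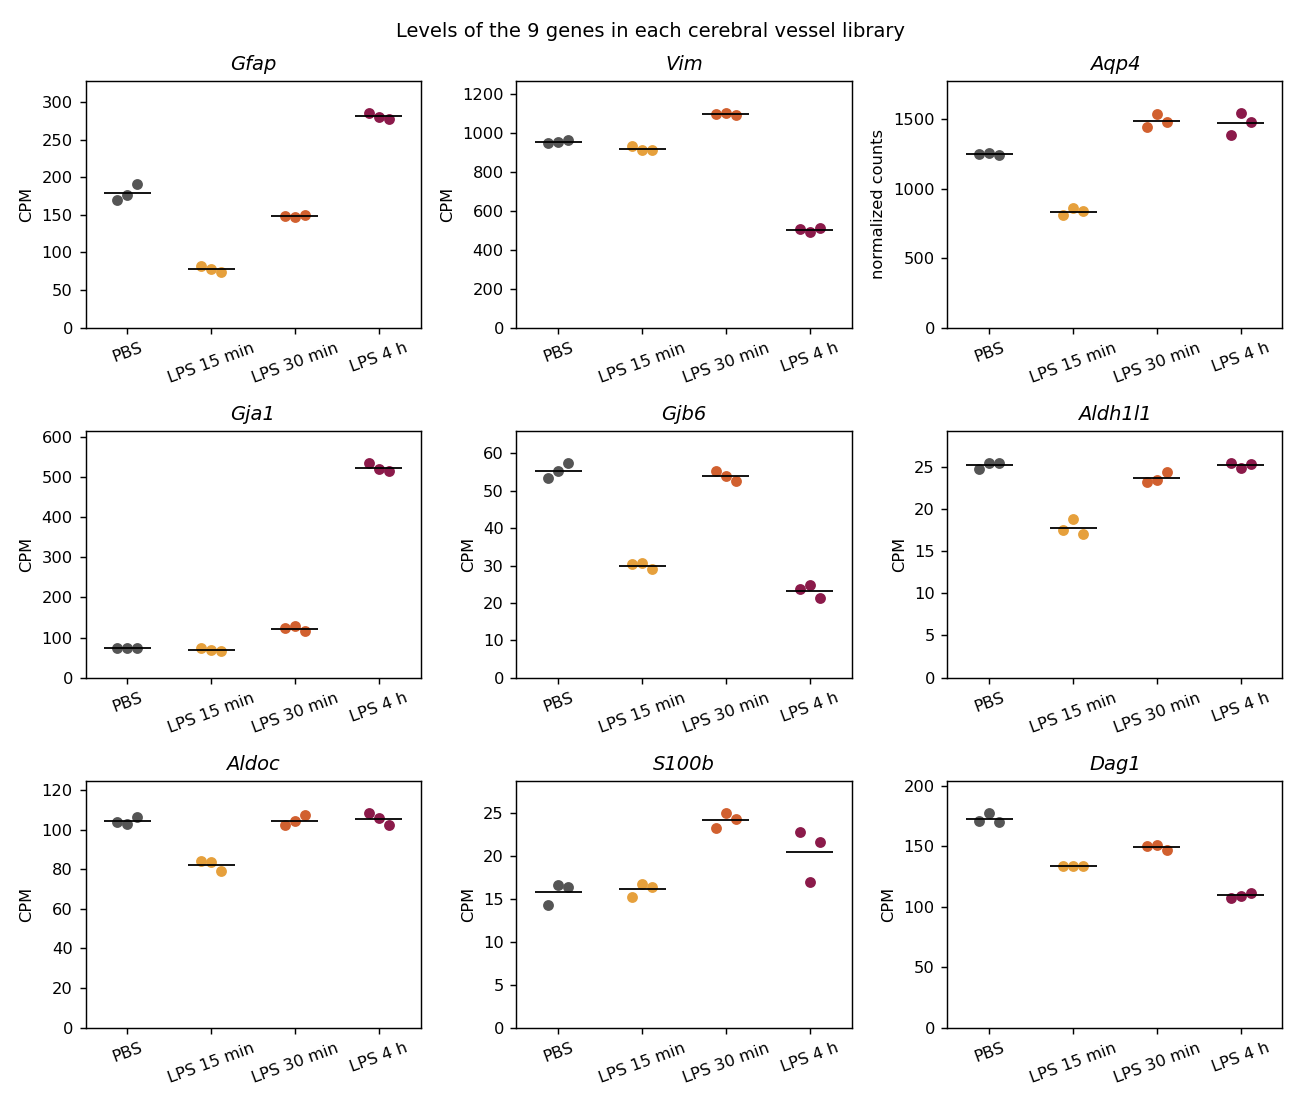
Levels of the 9 genes, 1 panel each, in the 12 libraries: the x axis gives the group, the y axis CPM (normalized counts for Aqp4), each point is 1 library and the line is the group mean. Gja1 stands at 515 to 534 CPM at LPS 4 h against 74.0 to 75.0 in PBS, while Gjb6 and Vim are lowest at LPS 4 h and Gfap is lowest at LPS 15 min.

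Which of these genes were highest in the vessels was read from TPM, which scales for transcript length; no TPM of Aqp4 is given, because few fragments joined to it. In PBS, Vim led with 962.6 ± 84.2 TPM, followed by Gfap at 115.1 ± 5.75 and Aldoc at 102.2 ± 1.19. Dag1 (51.54 ± 1.57 TPM) and Gjb6 (51.02 ± 1.43) overlapped, and below them came Gja1 at 40.61 ± 0.557, S100b at 20.17 ± 1.57 and Aldh1l1 at 15.82 ± 2.42. At LPS 15 min Aldoc stood above Gfap, and Gfap, Gjb6, Dag1 and Gja1 each overlapped their neighbour in this order. At LPS 30 min the order of the first 3 was Vim, Aldoc and Gfap, without overlap, and Gja1 overlapped Gjb6. At LPS 4 h Vim was still first, at 254.6 ± 13.8 TPM, followed by Gja1 at 151.4 ± 5.42 and Gfap at 95.58 ± 2.48. There S100b (14.04 ± 2.22 TPM) and Gjb6 (13.01 ± 4.57) overlapped. At that time a transcript with at most 0.647% of the fragments of Gjb6 held up to 38.7% of its TPM. Gja1 thus moved from below Gfap, Aldoc, Dag1 and Gjb6 in PBS to above all of them.

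At LPS 15 min against PBS, 2 of the 9 genes were called, Gfap and Gjb6, both lower. With a length offset or limma the count was 1, without Gjb6. The background was 4.25% of all genes tested, with 3.35% higher and 0.898% lower. Over the 9 genes the median log2 fold change was -0.37, beside -0.002 over all genes. A test against no change, without the 1.5-fold limit, called 7 of the 9, all lower, where it called 38.6% of all genes; the exceptions were Gja1 (-0.09, SE 0.041) and S100b (0.03, SE 0.092). At the same time the summed level of the 4 smooth muscle markers (Acta2, Myh11, Tagln and Cnn1) was 1490 to 1510 CPM against 2350 to 2380 in PBS, with 3 of 4 called lower. The 7 neuronal markers summed to 569 to 590 CPM against 423 to 438 in PBS, with 2 of 7 called higher, and the 4 fibroblast markers to 204 to 215 against 289 to 315, with 2 of 4 called lower. The part of these cells in the values of the 9 genes was not tested.

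At LPS 30 min 1 of the 9 genes, Gja1, was called and was higher. The count was 0 with DESeq2, library size alone, a length offset, limma or without LPS 30 min replicate 2. The share called among all genes was 4.62%, with 3.8% higher. The median of the 9 genes was 0.004 on the log2 scale, beside -0.01 over all genes. Without the fold limit 6 were called, 4 higher (Vim, Aqp4, Gja1 and S100b) and 2 lower (Gfap and Dag1), beside 36.9% of all genes. All 4 skeletal muscle markers and 2 of the 5 ependymal and choroid plexus markers were called higher at this time; their part in the rise of Gja1 was not tested.

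At LPS 4 h 5 of the 9 genes were called, in both directions. Gfap and Gja1 were higher, and Vim, Gjb6 and Dag1 were lower. Among all genes 33.0% were called, 19.1% higher and 13.9% lower. The median of the 9 genes was 0.015 on the log2 scale, beside -0.01 over all genes. Scaled by library size alone, 1 of the 8 genes other than Aqp4 was higher and 5 were lower, with a median of -0.695 beside -0.71 over all genes. Without the fold limit Aqp4 and S100b were called as well, both higher, and Aldh1l1 and Aldoc were not. That made 7 of the 9, where 68.5% of all genes were called. DESeq2 with the same fold limit called 3 of the 9, Gja1, Vim and Gjb6. Gfap also lost its call with no filter, a length offset, a model of PBS and LPS 4 h alone, or limma. The ependymal and choroid plexus markers summed to 17400 to 18200 CPM at LPS 4 h against 10300 to 10700 in PBS, with 4 of 5 called higher. Their part in the higher levels of Gja1 and Gfap, which ependymal cells can also make, was not tested.

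**Figure D2:**
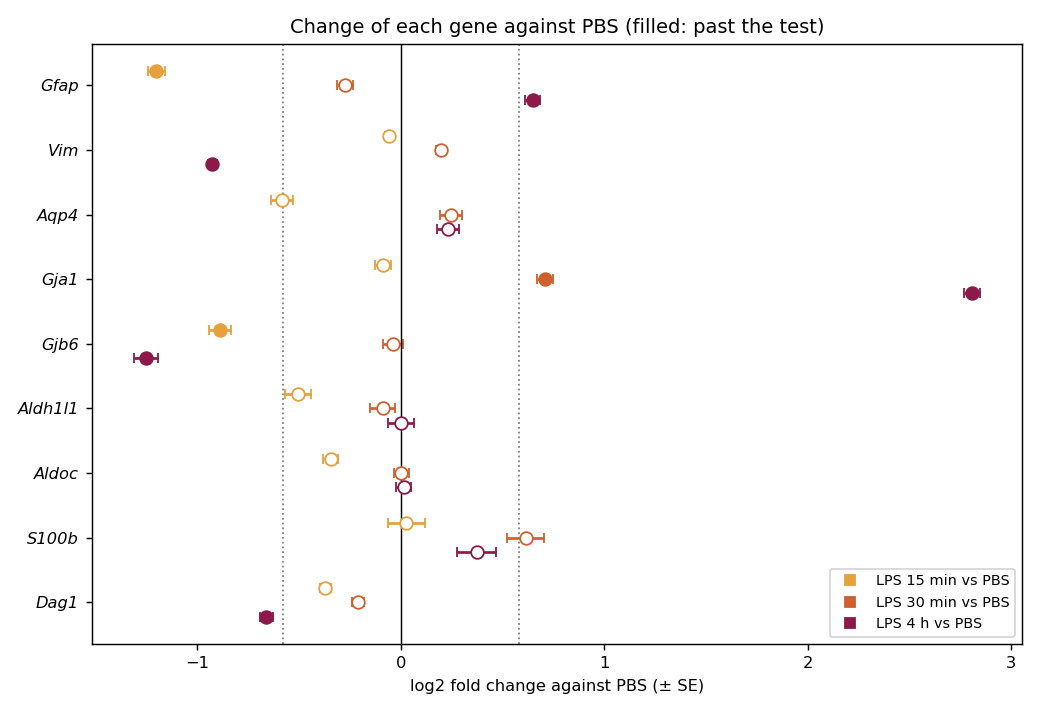
Log2 fold change against PBS (x axis) of each of the 9 genes (y axis) at LPS 15 min, LPS 30 min and LPS 4 h, with SE bars; filled points are past the threshold and dotted lines mark the fold limit of 0.58. At LPS 15 min no gene lies right of 0.03, while at LPS 4 h the points spread from -1.25 for Gjb6 to 2.81 for Gja1.

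Gfap (ENSMUSG00000020932, chromosome 11, 102887336 to 102900912, minus strand), the intermediate filament protein by which astrocytes are usually stained, fell first and was above PBS at the last time. In PBS its 3 libraries held 170.3, 175.8 and 191.5 CPM. The LPS 15 min libraries held 81.93, 78.25 and 73.68 CPM, those of LPS 30 min 148.2, 147.0 and 149.4, and those of LPS 4 h 285.2, 279.7 and 277.7. No group overlapped another, with LPS 15 min lowest and LPS 4 h highest. The log2 fold change at LPS 15 min was -1.20 (SE 0.0404, adjusted p 5.1e-12), a level 2.3-fold lower. For LPS 30 min it was -0.27 (SE 0.0387), not past the threshold. The value for LPS 4 h was 0.65 (SE 0.0384, adjusted p 0.0386). That call was near the limit and depended on the tool, the scaling and single libraries: it was lost with DESeq2 (adjusted p 0.293), in the deposited table under limma (0.61, adjusted p 0.586), without PBS replicate 1 (0.61) or 2 (0.63), and without LPS 4 h replicate 1 (0.64) or 2 (0.65, adjusted p 0.0521), and scaled by library size alone Gfap differed by -0.056. The call was also lost with no filter (0.60), a length offset (0.61) and a model of these 2 groups alone (0.61). In TPM, Gfap stood at 95.58 ± 2.48 at LPS 4 h and 115.1 ± 5.75 in PBS, so TPM gave the opposite order. The coding transcript Gfap-201 took 90.15% to 92.52% of the gene's TPM in the means of the 4 groups.

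Vim (ENSMUSG00000026728, chromosome 2, 13573927 to 13582826, plus strand), the other filament protein, stayed within the fold limit at the early times and fell at LPS 4 h. The PBS libraries held 946.6, 954.1 and 962.9 CPM. Values after 15 min of LPS were 929.7, 912.1 and 913.3 CPM, after 30 min 1094, 1100 and 1089, and after 4 h 506.5, 491.8 and 510.9. The LPS 4 h libraries lay far below all others. The log2 fold change against PBS was -0.06 (SE 0.0209) at LPS 15 min and 0.20 (SE 0.0209) at LPS 30 min, neither past the threshold, and -0.92 (SE 0.0215, adjusted p 1.14e-13) at LPS 4 h, a level 1.9-fold lower. Scaling by library size alone made that fall larger. Summed markers of endothelial cells, which also make Vim, were 7520 to 7550 CPM at LPS 4 h and 11100 to 11400 in PBS. Of these 8 markers 5 were called lower and 1 higher, beside 13.9% and 19.1% of all genes. Their part in the fall of Vim was not tested. Next to the coding transcript Vim-201, the retained-intron transcript Vim-203 held 20.47% ± 6.81 of the TPM in PBS and 14.43% ± 4.73 at LPS 4 h, a difference within the spread of the libraries. Its share of the gene's fragments was far smaller, 1.98% to 5.06% in PBS and 1.85% to 3.35% at LPS 4 h.

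The ratio of Gfap to Vim within a library does not depend on how libraries are scaled to each other. Gfap stood at 0.113, 0.109 and 0.139 of the TPM of Vim in PBS. After 15 min of LPS the ratio was 0.0535, 0.0557 and 0.0525, after 30 min 0.0923, 0.0893 and 0.0922, and after 4 h 0.392, 0.39 and 0.347. The groups did not overlap. The log2 ratio was higher at LPS 4 h than in PBS by 1.65 (mean -1.41 ± 0.101 against -3.06 ± 0.192, n = 3 each, two-sided exact permutation p = 0.1, the smallest that 3 against 3 can give).

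**Figure D3:**
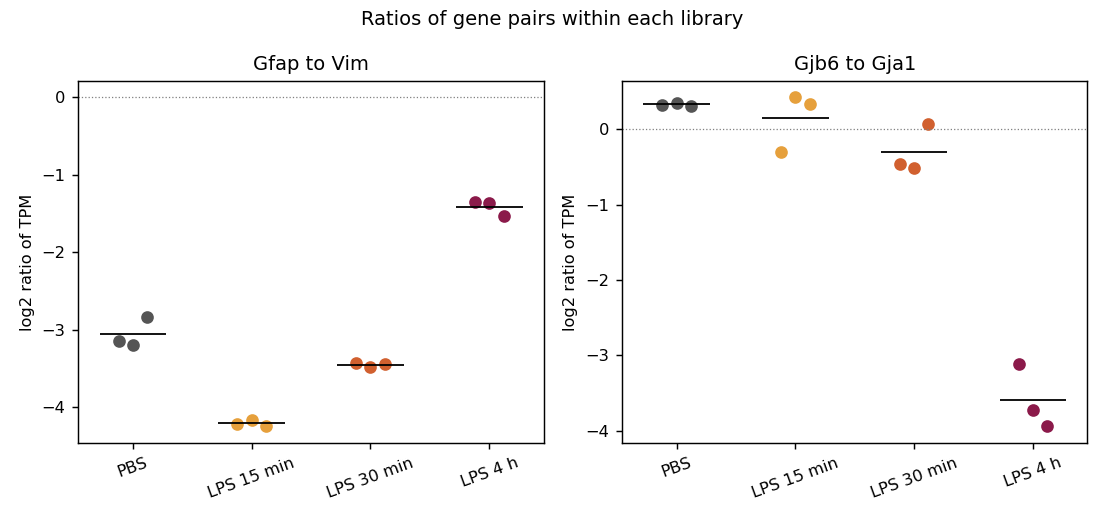
Log2 ratio of TPM of Gfap to Vim (left) and of Gjb6 to Gja1 (right) in each library, by group; points are libraries and lines group means. The LPS 4 h libraries lie above all others on the left (-1.53 to -1.35) and below all others on the right (-3.94 to -3.11).

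Gja1 (ENSMUSG00000050953, chromosome 10, 56377330 to 56402513, plus strand), connexin 43, rose more than any other of the 9 genes. Its PBS libraries held 74.02, 75.01 and 74.66 CPM. It stood at 74.3, 69.84 and 66.24 CPM after 15 min of LPS, 122.7, 128.0 and 115.4 after 30 min, and 533.8, 519.0 and 514.7 after 4 h. PBS and LPS 15 min overlapped, and each later group lay above all earlier ones. The log2 fold change was -0.09 (SE 0.041) after 15 min of LPS. It was 0.71 (SE 0.0397, adjusted p 0.0089) after 30 min and 2.81 (SE 0.0387, adjusted p 3.21e-24) after 4 h, which is 7.01-fold. The call at LPS 30 min was lost with DESeq2 (0.70, adjusted p 0.0596), with library size alone (0.55), in the deposited table under limma (0.69, adjusted p 0.479) and without LPS 30 min replicate 2 (0.68, adjusted p 0.0875); the rise at LPS 4 h was called under every alternative tried. Of the 8 transcripts, Gja1-201 took 98.66% to 98.87% of the TPM in each group mean.

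Gjb6 (ENSMUSG00000040055, chromosome 14, 57123303 to 57133611, minus strand), connexin 30, is in adult brain largely a protein of astrocytes. It held 53.49, 55.44 and 57.37 CPM in PBS. The LPS 15 min libraries had 30.35, 30.58 and 29.06 CPM, the LPS 30 min libraries 55.26, 54.01 and 52.74, and the LPS 4 h libraries 23.82, 24.77 and 21.31. LPS 15 min and LPS 4 h lay below PBS without overlap, and LPS 30 min overlapped PBS. Its log2 fold change was -0.89 (SE 0.0531, adjusted p 3.69e-05) after 15 min of LPS, -0.04 (SE 0.0509) after 30 min and -1.25 (SE 0.0598, adjusted p 1.12e-10) after 4 h. The fall at LPS 15 min depended on how transcript length was treated. With a length offset it was -0.28 (SE 0.187) and in the deposited table, which also divides by length, -0.31 (adjusted p 1.0), neither past the threshold.

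The transcripts of Gjb6 show where those scales part. Gjb6-201, which codes for the protein, lay between 22.6 and 24.14 TPM in PBS, 10.76 and 10.86 after 15 min of LPS, 17.23 and 19.33 after 30 min, and 7.223 and 8.726 after 4 h. The retained-intron transcript Gjb6-204 ran from 25.1 to 25.63 TPM in PBS and from 13.84 to 15.74 at LPS 15 min. Both lay below PBS in all 3 libraries of LPS 15 min. The TPM of the processed transcript Gjb6-203 went the other way and varied between libraries of 1 group, from 0 to 3.241 in PBS and from 5.423 to 23.22 at LPS 15 min. Its share of the gene's fragments was at most 0.0687% in PBS and 0.223% to 0.903% at LPS 15 min. These TPM therefore rest on very few fragments. No test was made on transcripts.

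**Figure D4:**
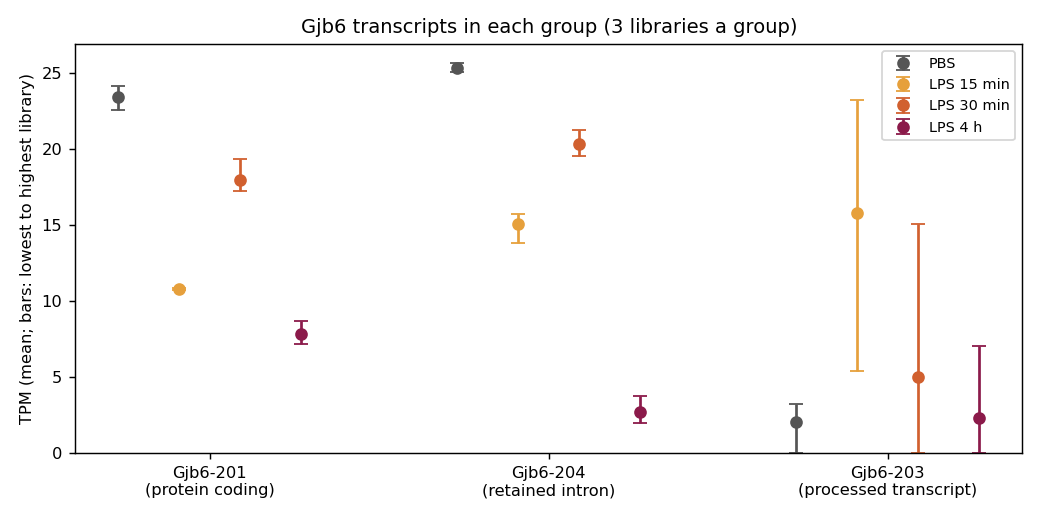
TPM (y axis) of 3 transcripts of Gjb6 (x axis) in the 4 groups; points are means of 3 libraries and bars run from the lowest to the highest library. The coding transcript Gjb6-201 was at 10.8 TPM at LPS 15 min and 23.4 in PBS with hardly any spread, while Gjb6-203 ran from 5.42 to 23.2 among the LPS 15 min libraries. There Gjb6-203 held at most 0.903% of the gene's fragments.

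The astrocyte connexins thus went in opposite directions at LPS 4 h. The ratio of Gjb6 to Gja1 in TPM was 1.25, 1.28 and 1.24 with PBS and 0.116, 0.0755 and 0.065 with LPS 4 h. The difference in the log2 ratio was -3.92 (mean -3.60 ± 0.431 against 0.33 ± 0.021, n = 3 each, two-sided exact permutation p = 0.1, the smallest possible). The ratio at LPS 15 min, 0.808, 1.34 and 1.26, overlapped that in PBS (log2 difference -0.18, exact permutation p = 0.9, n = 3 each), and at LPS 30 min it was lower by 0.63 on the log2 scale, without overlap (exact permutation p = 0.1). At LPS 15 min Gjb6-203 held 16.7% to 46.3% of the TPM of Gjb6 on at most 0.903% of its fragments. The TPM ratio at that time therefore depends on very few fragments. At LPS 30 min and LPS 4 h Gjb6-203 held up to 28.7% and 38.7% of that TPM, on at most 0.423% and 0.647% of the fragments. The ratios at these times carry the same limit. In CPM Gjb6 lay below PBS at LPS 15 min without overlap, while Gja1 overlapped PBS.

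Aqp4 (ENSMUSG00000024411), the water channel of the endfoot, had 1254, 1259 and 1241 normalized counts in PBS. The values were 809.1, 858.2 and 839.7 after 15 min of LPS, 1444, 1537 and 1478 after 30 min, and 1389, 1545 and 1478 after 4 h. LPS 15 min was lowest, and LPS 30 min and LPS 4 h overlapped each other above PBS. Against PBS the log2 fold change was -0.58 (SE 0.0529), 0.25 (SE 0.0529) and 0.23 (SE 0.0529) in the order of the times, and none was past the fold limit (limma, adjusted p 1.0 each), although each differed from 0 in limma without that limit (adjusted p 1.64e-06, 0.0031 and 0.00156). In the limma test 2.12%, 2.8% and 27.4% of 19330 genes were called at these times. Salmon fragments that joined to Aqp4 in GENCODE M21 numbered only 21 to 814 per library and gave log2 fold changes of 1.5 (SE 0.65) at LPS 15 min, opposite in sign to the deposited table and not past the threshold, and 2.65 (SE 0.629) at LPS 30 min and 2.49 (SE 0.649) at LPS 4 h, both past it. They were not used: the LPS 15 min libraries held 471, 50 and 171 of these fragments, a far wider spread than in the deposited table. Scaled by library size alone the deposited values at LPS 4 h differed from PBS by -0.45, not past the threshold.

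Dag1 (ENSMUSG00000039952, chromosome 9, 108204634 to 108263958, minus strand) encodes dystroglycan. Its values were 171.2, 177.3 and 170.3 CPM in PBS, 133.5, 134.1 and 134.2 after 15 min of LPS, 150.2, 151.6 and 146.9 after 30 min, and 107.5, 109.4 and 111.6 after 4 h. Every LPS group lay below PBS, and LPS 4 h below all others. The log2 fold change was -0.37 (SE 0.029), -0.21 (SE 0.0291) and -0.66 (SE 0.0311, adjusted p 0.00772), of which the last passed the threshold; with DESeq2 it missed it (-0.66, adjusted p 0.0681). The coding transcript Dag1-204 held 87.54% to 90.4% of the TPM in the group means.

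Aldh1l1, Aldoc and S100b, the general astrocyte markers, were called at no time. Aldh1l1 (ENSMUSG00000030088, chromosome 6, 90486427 to 90600203) averaged 25.15 ± 0.399 CPM in PBS and 17.74 ± 0.927, 23.67 ± 0.614 and 25.18 ± 0.296 after 15 min, 30 min and 4 h of LPS. Aldoc (ENSMUSG00000017390, chromosome 11, 78322968 to 78327781) averaged 104.2 ± 1.92, 82.22 ± 2.9, 104.5 ± 2.51 and 105.4 ± 3.02 CPM in the same order. Both were lowest at LPS 15 min, without overlap with PBS, by -0.51 (SE 0.0634) and -0.34 (SE 0.0368) on the log2 scale. Their differences from PBS at LPS 4 h were 0.002 (SE 0.0655) and 0.015 (SE 0.0381). When libraries were scaled by total alone these became -0.70 (adjusted p 0.0199) and -0.69 (adjusted p 0.00222), past the threshold, where the median of all genes moved by a like amount, to -0.71. In TPM both stood lower at LPS 4 h than in PBS, Aldh1l1 at 7.027 and 15.82, Aldoc at 52.09 and 102.2. S100b (ENSMUSG00000033208, chromosome 10, 76253853 to 76261159) had 14.27, 16.63 and 16.34 CPM in PBS and 23.27, 24.92 and 24.23 at LPS 30 min. Its log2 fold change was 0.62 (SE 0.09) at LPS 30 min and 0.37 (SE 0.0962) at LPS 4 h, where LPS 4 h replicate 2 (16.98 CPM) lay near PBS and the others at 22.82 and 21.58.

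From LPS 15 min to LPS 30 min 4 of the 9 genes were called, all higher: Gfap by 0.93 (SE 0.0411), Gjb6 by 0.85 (SE 0.0538), Gja1 by 0.80 (SE 0.04) and, in the deposited table, Aqp4 by 0.83 (SE 0.0529, limma adjusted p 0.0108). Among all genes 4.76% were called, 2.77% higher and 1.99% lower, and in the limma test 2.33%. The median of the 9 genes was 0.59 on the log2 scale, beside -0.003 over all genes. All 9 were called higher when the fold limit was dropped, where 37.4% of all genes were called, 3674 higher and 3479 lower. Scaled by library size alone only Gfap was called. Gjb6 was not called with a length offset (0.35) or in the deposited table (0.36), and Aqp4 was lost without LPS 15 min replicate 1 (0.81, adjusted p 0.0593) or LPS 30 min replicate 2 (0.81, adjusted p 0.0618).

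From LPS 30 min to LPS 4 h 4 genes were called: Gja1 by 2.10 (SE 0.0374) and Gfap by 0.92 (SE 0.0393) higher, and Gjb6 by -1.21 (SE 0.0605) and Vim by -1.12 (SE 0.0216) lower. Of all genes 28.9% were called, 17.0% higher and 11.9% lower, and in the limma test 23.5%. Aqp4 differed between these times by -0.02 (SE 0.0529), Aldoc by 0.01 (SE 0.0385) and Aldh1l1 by 0.09 (SE 0.0668). Scaled by library size alone the difference in Gfap was 0.38 and not called, and S100b (-0.78, adjusted p 0.0134) and Dag1 (-0.99, adjusted p 4.86e-12) were called lower. These intervals share the LPS 30 min libraries with the comparison before and are given side by side only.

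Other genes enriched in astrocytes gave a setting for these values. Of 28 such genes 1 was called at LPS 15 min, Fabp7, a fatty acid binding protein of immature astrocytes, which fell by 1.48 on the log2 scale (SE 0.146, adjusted p 1.56e-05). Of all genes 4.25% were called at that time, 0.898% lower. The sign was negative in 27 of the 28, with a median of -0.23 beside -0.002 over all genes. For LPS 30 min edgeR called 0 of the 28 beyond 1.5-fold (0 also at an unadjusted p under 0.05 against that fold, with DESeq2 and with limma, and 21 with no fold limit), and the median was 0.14. Of all genes 36.9% were called with no fold limit at that time. By LPS 4 h 2 were higher and 6 lower, a share near the 33.0% of all genes, with a median of -0.15. Sox9, a transcription factor of astrocyte identity, rose by 1.41 (SE 0.0489), and Plpp3, a lipid phosphatase, by 1.01 (SE 0.0365). Among the falls were Fgfr3, a growth factor receptor, by -2.04 (SE 0.0568), the protease gene Htra1 by -1.24 (SE 0.0403) and Fabp7 by -1.14 (SE 0.153). With library size alone 19 of the 28 were lower and 1 higher at LPS 4 h.

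Of the 20 genes that anchor the endfoot to the basement membrane or form its channels 19 were tested, and edgeR called 0 at LPS 15 min and 0 at LPS 30 min beyond 1.5-fold (0 also at an unadjusted p under 0.05 against that fold, with DESeq2 and with limma). With no fold limit 12 and 9 were called, where 38.6% and 36.9% of all genes were called. By LPS 4 h 4 were higher and 4 lower, beside 33.0% of all genes called, with a median of 0.03. Higher were, among others, Sntb2, a syntrophin, by 3.03 (SE 0.0374), from 45.76 ± 1.32 to 372.8 ± 9.1 CPM, Dtnb, a dystrobrevin, by 0.98 (SE 0.0759), and the laminin gene Lamc1 by 0.90 (SE 0.0255). Among those lower were Lama1, a laminin chain, by -2.55 (SE 0.0782), and the sarcospan gene Sspn by -1.44 (SE 0.0786). With library size alone 1 was higher and 10 were lower. Kcnj10, the potassium channel of endfeet, named after its values were seen, was at 52.92 CPM in PBS and 69.68 at LPS 4 h and was not called at any time. Of 12 genes for the glycosylation of dystroglycan, 5 were called at LPS 4 h and 0 at LPS 15 min or LPS 30 min by edgeR, DESeq2 or limma, 0 also at an unadjusted p under 0.05 against the fold limit. With no fold limit 4 and 3 were called at these early times, and the share of all genes called at LPS 4 h was 33.0%. Gmppb, which makes GDP-mannose, was higher by 0.89 (SE 0.0919), and Pomk, B4gat1 and Pomt1, enzymes that build the laminin-binding sugar chain, were lower by -1.52 (SE 0.125), -1.27 (SE 0.0875) and -1.06 (SE 0.0906). With library size alone 8 of the 12 were lower and 0 higher. Among 3 other aquaporins 1 was called, Aqp11 at LPS 4 h (-1.56, SE 0.0624), while Aqp1 was at 65.49 ± 3.41 CPM in PBS and 68.52 ± 2.15 at LPS 4 h.

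Of 13 other connexins, pannexins and partners 1 was called at LPS 15 min, Gjb2, connexin 26, lower by -1.24 (SE 0.0769), and 0 at LPS 30 min by edgeR, DESeq2 or limma, where 1 had an unadjusted p under 0.05 against the fold limit and 7 were called without that limit. Without it 36.9% of all genes were called at LPS 30 min. Beyond 1.5-fold 4.25% of all genes were called at LPS 15 min, 0.898% lower, and 4.62% at LPS 30 min. By LPS 4 h 4 were higher and 2 lower, beside 33.0% of all genes called. Gja4, connexin 37 of arterial endothelium, was higher by 1.30 (SE 0.0361), Gjb2 by 0.90 (SE 0.0702) and Ccn3, whose protein binds connexin 43, by 0.79 (SE 0.0477). Among those lower was Gja5, connexin 40, by -1.39 (SE 0.0927). Scaled by library size alone 6 were lower and 0 higher at LPS 4 h, so the 4 rises were not called on that scale.

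Among 13 other intermediate filament genes and partners 1 was called at LPS 30 min, Eppk1, an epiplakin, higher by 1.56 (SE 0.185). Of all genes 4.62% were called at that time, 3.8% higher. For LPS 4 h the counts were 4 higher and 4 lower, beside 33.0% of all genes called, or 1 higher and 6 lower with library size alone. Eppk1 was higher by 1.72 (SE 0.189), Synm, a partner of Gfap and Vim, by 1.27 (SE 0.032) and the keratin gene Krt18 by 1.25 (SE 0.0999). The neurofilament genes Nefl (-1.16, SE 0.0973), Nefm (-1.11, SE 0.094) and Ina (-0.99, SE 0.118) were lower, at a time when 7 neuronal markers summed to 275 to 287 CPM against 423 to 438 in PBS; their part was not tested. In the S100 family of 9 other genes S100a9 fell at LPS 15 min by 1.89 on the log2 scale (SE 0.257). That fall lies near the floor: the 4 neutrophil markers, S100a9 among them, summed to 0.678 to 1.36 CPM there and 1.95 to 2.56 in PBS. By LPS 4 h 3 were higher, S100a9 by 6.22 (SE 0.109), S100a8 by 6.11 (SE 0.207) and S100a11 by 1.65 (SE 0.0432), and S100a16 was lower by -1.11 (SE 0.0449). Of all genes 33.0% were called at that time. S100a8 and S100a9 are genes of neutrophils, whose 4 markers summed to 158 to 165 CPM at LPS 4 h and 1.95 to 2.56 in PBS. In the list of aldolase and folate genes Mthfd1l was higher at each time, by 1.12 (SE 0.131), 1.33 (SE 0.131) and 1.68 (SE 0.134), and Mthfd2 was higher at LPS 4 h by 3.40 (SE 0.142). Both are mitochondrial enzymes of folate metabolism, the pathway of Aldh1l1.

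Genes known to mark reactive astrocytes were taken in 3 lists, of which the pan-reactive list includes Gfap and Vim themselves. The shares of all genes called were 4.25%, 4.62% and 33.0% at LPS 15 min, LPS 30 min and LPS 4 h, with 19.1% higher at LPS 4 h. In the pan-reactive list of 13 genes, 3 were higher and 2 lower at LPS 15 min, 5 higher at LPS 30 min, and 11 higher and 1 lower at LPS 4 h, with a median of 3.63 at that last time. Cxcl10, a chemokine, was at 1.956 ± 0.382 CPM in PBS and 9070 ± 54.7 at LPS 4 h, higher by 12.18 on the log2 scale. Lcn2, an iron-binding acute phase protein, was higher by 1.90, 6.03 and 10.70 at the successive times, and Steap4, a metalloreductase, by 6.51 at LPS 4 h. The 1 gene of the list that was lower at LPS 4 h was Vim, and Aspg fell at LPS 15 min by 1.32 on the log2 scale (SE 0.0923), beside Gfap. In the list named A1, 1 gene was higher and 1 lower at LPS 15 min, the latter Fbln5 (-0.73), and 1 was higher at LPS 30 min. Of its 11 genes tested 10 were called at LPS 4 h, 9 higher, led by Gbp2 (5.99), Iigp1 (5.71) and Psmb8 (3.25), genes of the interferon response, while Fbln5 was lower (-1.07). Fkbp5, a glucocorticoid target, was higher at each time, by 1.94, 2.43 and 2.94. In the list named A2, 1 gene was higher and 1 lower at LPS 15 min, 4 were higher at LPS 30 min, and 10 of 12 were higher at LPS 4 h, led by Cd14 (8.31), Ptgs2 (7.25) and Ptx3 (7.04), and Ptgs2 was already higher at LPS 15 min (1.28). Sphk1 was lower at LPS 15 min (-0.86) and higher at LPS 4 h by 3.21 on the log2 scale. Scaled by library size alone the calls at LPS 4 h were 8 higher and 2 lower in the pan-reactive list, 7 and 2 in A1, and 10 and 0 in A2. Endothelial cells and leukocytes make many of these genes too, and the cells that changed cannot be told apart in these libraries.

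**Figure D5:**
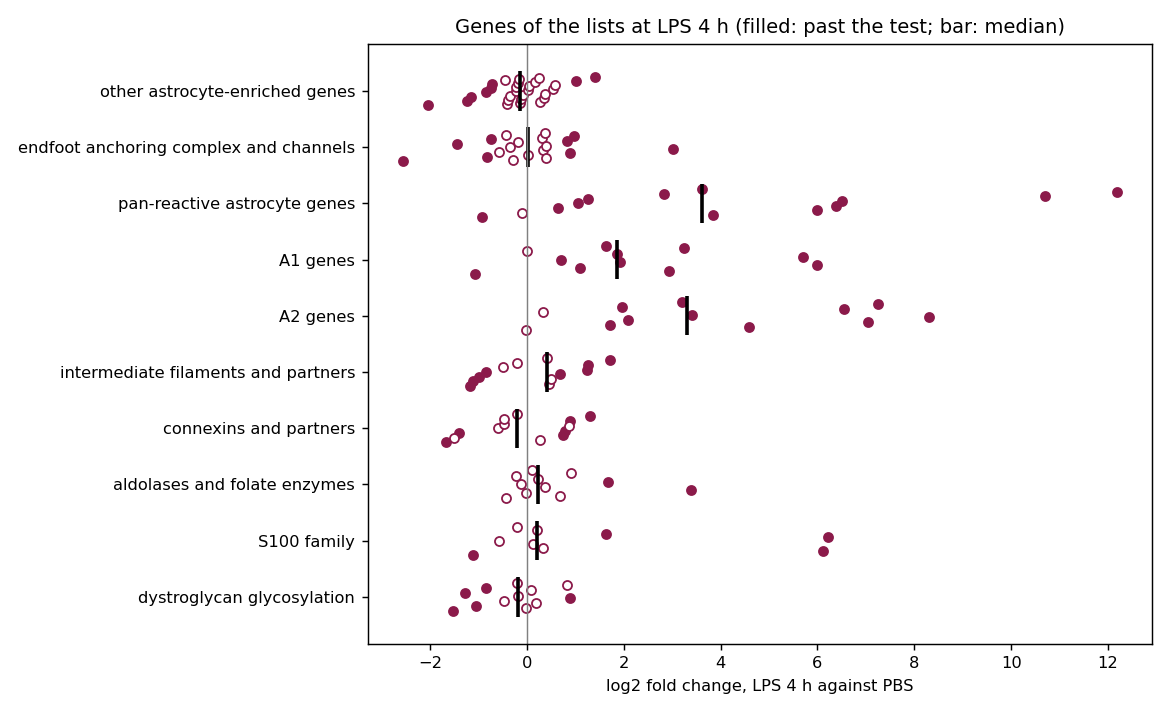
Log2 fold change at LPS 4 h against PBS (x axis) of every tested gene in 10 gene lists (y axis); filled points are past the threshold and black bars are list medians. The pan-reactive, A1 and A2 lists lie mostly to the right, with medians of 3.63, 1.87 and 3.31, while the other lists have medians from -0.20 to 0.42.

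The genes whose pattern over the 12 libraries was most like that of each of the 9 were found by Pearson correlation of log2 CPM among 10893 genes with a mean of at least 10 CPM. For Aqp4, log2 of its deposited values with 1 added was set against the log2 CPM of the other genes. The 12 libraries fall into 4 groups, so a high value mostly says that the group levels have the same order and spacing. For Gja1 the nearest were Rhoc, Relb and Gm48161 (r = 0.999 each), and 1483 genes reached 0.95. For Vim they were St6galnac2, Smad6 and Zfp651 (r = 0.996 each), with 636 genes at 0.95 or more. Gfap was nearest to Parva (r = 0.989), C4b (r = 0.988) and Calcrl (r = 0.986), and Dag1 to Vwf (r = 0.997), Eps8l2 (r = 0.993) and Slc6a13 (r = 0.986). Gjb6 was nearest to Map4 (r = 0.989), Slc13a3 and Fmod (r = 0.978 each), and Aqp4 to Tagln (r = 0.982), Wfikkn2 (r = 0.976) and Pebp1 (r = 0.974). Aldh1l1 was nearest to Islr (r = 0.981), Aldh1a2 (r = 0.973) and Acta2 (r = 0.972), Aldoc to Aldh1l1 (r = 0.97), Klhdc7a (r = 0.966) and Islr (r = 0.965), and S100b to Wdr35 (r = 0.957), Odf3b (r = 0.947) and Rpl8 (r = 0.946). Aldoc and Aldh1l1 were the only pair of the 9 among these nearest genes, and Tagln and Acta2, genes of smooth muscle, shared with Aqp4 and Aldh1l1 the low level at LPS 15 min.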

How the data were processed

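RNA of isolated cerebral vessels was sequenced with the SMART-Seq v4 and Nextera XT kits, which do not mark strand, in 12 libraries that the labels assign to 4 groups of 3. The authors ran Salmon 1.2.1, whose estimated counts of fragments per transcript were deposited without normalization. TPM, deposited beside them, are scaled for length and library. The deposited gene table is a normalized signal: the authors applied DESeq2 size factors together with transcript length factors on GRCm38.p6.

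Transcripts were joined by identifier to GENCODE M21 (139852 of 140948; the others held 0.482% to 0.85% of fragments), summed to genes and rounded. All libraries entered 1 model in edgeR 4.0.16 (R 4.3.3), with TMM, filterByExpr (minimum count 10), glmQLFit and glmTreat against 0.58 on the log2 scale, with Benjamini-Hochberg adjustment over all genes. Each SE was derived as the absolute log2 fold change over the root of its F statistic. For Aqp4, limma 3.58.1 tested log2 of the deposited table with 1 added, over genes with at least 10 in 3 libraries. With 3 libraries against 3, calls rest on a spread pooled across genes (common biological coefficient of variation 0.0524). The p-values measure the spread between libraries of a group, which the labels give as pools of mice. Between libraries of a group the median squared difference was 2.19 to 2.9 times counting noise. How much of this spread lies between mice was not tested. The models were tried on simulated counts with known changes. Named were the 9 genes, from each list up to 3 called rises and 3 falls by size at LPS 4 h and up to 2 of each at LPS 15 min and LPS 30 min, and the 3 genes nearest in pattern to each of the 9. Some genes that this rule names are not reported here. The lists used the symbols Ccn3 and Ispd of the annotation. The 9 genes, lists and tests were chosen with earlier results of these data known. Alternatives were DESeq2 1.42.0, RLE factors, library size only, no filter, no fold limit, a length offset, separate models for each pair of groups, a replicate block, limma with 1 or 10 added, and leaving out each library. Settings that apply edgeR counts or factors to Aqp4, including estimates rebuilt from the deposited table, were added after seeing the data.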

Additional observations from a re-analysis of the deposited data

Results flagged for a closer look

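Differences between the LPS times in the change against PBS were past the threshold for 8 values. From LPS 15 min to LPS 30 min the level went up for Gfap (0.93 on the log2 scale), Aqp4 (0.83), Gja1 (0.80) and Gjb6 (0.85). From LPS 30 min to LPS 4 h it went up for Gfap (0.92) and Gja1 (2.10) and down for Vim (-1.12) and Gjb6 (-1.21). Each is the test of 1 LPS time against another, by edgeR or, for Aqp4, limma. Groups of 3 libraries are too small to look for single outlying libraries.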

How the results depend on the processing

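Of 720 values of the 9 genes under the alternatives, 664 kept their side of the threshold, 30 lost and 23 gained a call, and 3 changed sign with a call in 1 of the settings, all at LPS 4 h with library size only: Gfap -0.056, Aldh1l1 -0.70 and Aldoc -0.69. Of the 664, 46 changed sign while called in neither setting, 43 of them from a value under 0.1 in size; the others were Aqp4 at LPS 15 min on summed estimates (1.5) and, with library size only at LPS 4 h, Aqp4 (-0.45) and S100b (-0.33). The log2 ratio of mean levels of Gfap at LPS 4 h was -0.27 in TPM. The number of the 9 genes called at LPS 15 min (2) became 7 with no fold limit and 1 with a length offset, with limma and 1 added, and with limma and 10 added, and it was 2 to 2 without single libraries. At LPS 30 min (1) it became 0 with DESeq2, library size only, the length offset and both limma settings, 6 with no fold limit, and 0 to 1 without single libraries, with 0 only without LPS 30 min replicate 2. At LPS 4 h (5) it became 3 with DESeq2, 7 with no fold limit and 4 to 5 without single libraries. Gfap also lost its call there with no filter, a length offset, separate models for each pair of groups and both limma settings. With library size only 1 was higher and 5 were lower, of the 8 genes other than Aqp4. From LPS 15 min to LPS 30 min (4) it became 1 with library size only, 9 with no fold limit and 3 to 4 without single libraries. There Gjb6 also lost its call with a length offset and both limma settings. From LPS 30 min to LPS 4 h (4) the number became 6 with no fold limit and was 4 to 4 without single libraries. With library size only 1 was higher and 4 were lower, of the 8 genes other than Aqp4. With no fold limit 38.6% of all genes were called at LPS 15 min, 36.9% at LPS 30 min and 37.4% between these times. The shares were 68.5% at LPS 4 h and 65.3% from LPS 30 min to LPS 4 h. The log2 ratio of Gfap to Vim at LPS 4 h differed from PBS by 1.58 to 1.76, and that of Gjb6 to Gja1 by -4.16 to -3.75, without single libraries. The cause of these changes was not tested. The replicate block, tried because the labels number the replicates 1 to 3 in each group, changed none of 45 calls of the 9 genes; over all genes the calls at LPS 15 min, LPS 30 min and LPS 4 h numbered 792, 869 and 6277 with it, and same-numbered libraries correlated by -0.16 to 0.19, so the numbers were not taken as pairs. Of 550 counts over the gene lists 92 moved by more than 1.5 times. Estimates of Aqp4 rebuilt from the deposited table changed no call. S100b and Aldh1l1 held 255 to 752 fragments per library, and Gjb6 held 309 to 372 at LPS 4 h. The effect of depth on the calls was not tested.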
